A study of Mus musculus with 8 samples.

Results

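The B cell receptor signalling genes described here are 36 kinases, adaptors, coreceptors, phosphatases and other signal proteins that were listed by name and matched by Ensembl identifier to the table of 54532 genes. RNA of bone marrow B cells was sequenced from mice that had the ovaries removed (OVX) and from mice that had a sham operation (Sham), in 3 libraries per group. The cells were taken from marrow with antibody-coated magnetic beads. Loss of the ovaries is a model of estrogen deficiency, and the labels of these libraries give no strain, age, genotype or interval after surgery. All 36 genes had at least 124 reads in every library and passed the filter on low counts, so every one was tested.

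The B cell receptor is a membrane immunoglobulin held together with the signal chains CD79A and CD79B. When it is engaged, Src-family kinases phosphorylate these chains, SYK docks on them, and SYK and BTK then act through the adaptor BLNK on phospholipase C gamma 2. From there the signal branches to calcium and NFAT, to protein kinase C and NF-kB, to Ras, and to PI3 kinase, while coreceptors lower its threshold and inhibitory receptors and phosphatases restrain it. In the marrow many of the same proteins serve the pre-B receptor, so much of the pathway is in use before a B cell carries surface immunoglobulin.

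Counts were between 23838775 and 33136701 per library, and no gene of the 15305 tested was called in OVX against Sham. The libraries did not fall apart by operation. Sham replicate 2 stood apart from the others in stage markers. Its 14 mature B cell markers summed to 4463 CPM (read counts scaled to a common library total with edgeR's TMM factors), against 2488 and 2720 in Sham replicates 1 and 3 and between 2676 and 2924 in OVX, and 10 of the 14 were highest there. Ighd, the heavy chain gene of IgD, had 1012 CPM in Sham replicate 2 and between 425 and 546 CPM in the other 5 libraries. The 8 pre-B markers summed to 2482 CPM in Sham replicate 2, against 4279 and 3584 in the other Sham libraries and between 4027 and 4620 in OVX, and all 8 were lowest in Sham replicate 2. None of the markers of either list was at 0 in any library. Sham replicate 1 was closer to the OVX libraries than to Sham replicate 2, with a chi-square per degree of freedom over gene counts of 9.32 against OVX replicate 2 and 58.3 against Sham replicate 2. The 18 neutrophil markers were all highest in Sham replicate 3, with a sum of 10185 CPM there and between 1190 and 4303 CPM in the other 5 libraries. In bulk RNA, fewer cells of a type and less RNA per cell cannot be told apart. The 12 T and NK cell markers summed to between 45.8 and 80.3 CPM, of which Lck had 20.9 to 33.4 CPM and Cd4 9.71 to 32.7 CPM, and Gzma was at 0 in OVX replicate 3.

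The upstream sequences of 5 genes are shown because their transcript levels differed in opposite ways across the Sham libraries. Cr2, Bank1 and Cd22 were highest in Sham replicate 2, and Blnk and Pik3ap1 were lowest there. Each run is the 250 bases before a RefSeq transcript start in GRCm38.p6, read on the gene's own strand, which is the minus strand for all 5, from Cr2 at chr1:195176720-195176969, Bank1 at chr3:136326067-136326316, Cd22 at chr7:30879029-30879278, Blnk at chr19:40994222-40994471 and Pik3ap1 at chr19:41385103-41385352. A gene can have several starts. The windows of Blnk and Pik3ap1 end where the gene's RefSeq span begins, those of Cr2 and Bank1 overlap that span in part, and the window of Cd22 lies inside it. Capitals mark matches to the motifs named after the sequences.
Cr2: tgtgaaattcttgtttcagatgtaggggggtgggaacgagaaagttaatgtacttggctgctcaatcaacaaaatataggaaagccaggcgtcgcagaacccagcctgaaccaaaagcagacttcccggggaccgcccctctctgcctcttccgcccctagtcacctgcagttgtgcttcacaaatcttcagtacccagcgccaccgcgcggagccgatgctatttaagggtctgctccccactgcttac
Bank1: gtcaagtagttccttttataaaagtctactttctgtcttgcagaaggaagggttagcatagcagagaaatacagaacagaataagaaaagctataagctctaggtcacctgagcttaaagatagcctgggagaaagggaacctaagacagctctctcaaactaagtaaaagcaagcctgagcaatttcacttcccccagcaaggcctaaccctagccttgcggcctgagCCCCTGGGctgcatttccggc
Cd22: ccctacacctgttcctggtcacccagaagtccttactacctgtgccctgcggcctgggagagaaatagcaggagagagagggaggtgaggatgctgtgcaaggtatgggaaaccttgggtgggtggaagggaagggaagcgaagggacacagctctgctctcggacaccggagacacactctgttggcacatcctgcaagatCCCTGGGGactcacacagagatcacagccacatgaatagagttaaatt
Blnk: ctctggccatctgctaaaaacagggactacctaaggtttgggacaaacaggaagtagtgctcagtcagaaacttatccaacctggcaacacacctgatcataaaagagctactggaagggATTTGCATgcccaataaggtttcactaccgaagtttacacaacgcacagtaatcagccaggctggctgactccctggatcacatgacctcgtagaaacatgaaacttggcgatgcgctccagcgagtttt
Pik3ap1: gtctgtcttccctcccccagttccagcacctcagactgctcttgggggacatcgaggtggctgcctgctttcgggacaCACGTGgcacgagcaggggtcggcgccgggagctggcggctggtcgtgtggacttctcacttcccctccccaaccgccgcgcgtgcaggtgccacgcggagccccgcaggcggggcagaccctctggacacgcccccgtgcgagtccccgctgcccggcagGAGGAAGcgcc

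The search used 5 short motifs on both strands, CCCNNGGG for EBF1, ATGCAAAT for the octamer, GAGGAAG for PU.1, ACGTG for the core of the hypoxia response element and GGGNNTTCC for NF-kB. Windows were found for 32 of the 36 genes, 44 windows in all. CCCNNGGG was held by 18.2% of the 44 windows and by 11.8% of all 32851 windows in the table. It began 21 bases before the start of Bank1 and 48 bases before the start of Cd22, and was also in windows of Cd81, Fyn, Vav1 and Vav3. The octamer was in 4.55% of these windows and in 1.6% of all windows, with matches 130 bases before the start of Blnk and 70 before that of Prkcb. GAGGAAG was in 20.5% of these windows and 10.6% of all windows, with a match 11 bases before the start of Pik3ap1. Another lay 50 bases before a start of Rasgrp3, which was highest in Sham replicate 2. The others were in windows of Cblb, Cd72, Csk, Grb2, Inpp5d, Nfatc3 and Vav1. ACGTG was in 20.5% and 16.6%, and its matches in Pik3ap1, at 172 and 171 bases before the start, are the 2 strands of one CACGTG. GGGNNTTCC was in 11.4% and 4.98% of windows. The window of Cr2 held none of the 5 motifs. These are letter matches in short windows and were not tested.

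**Figure D1:**
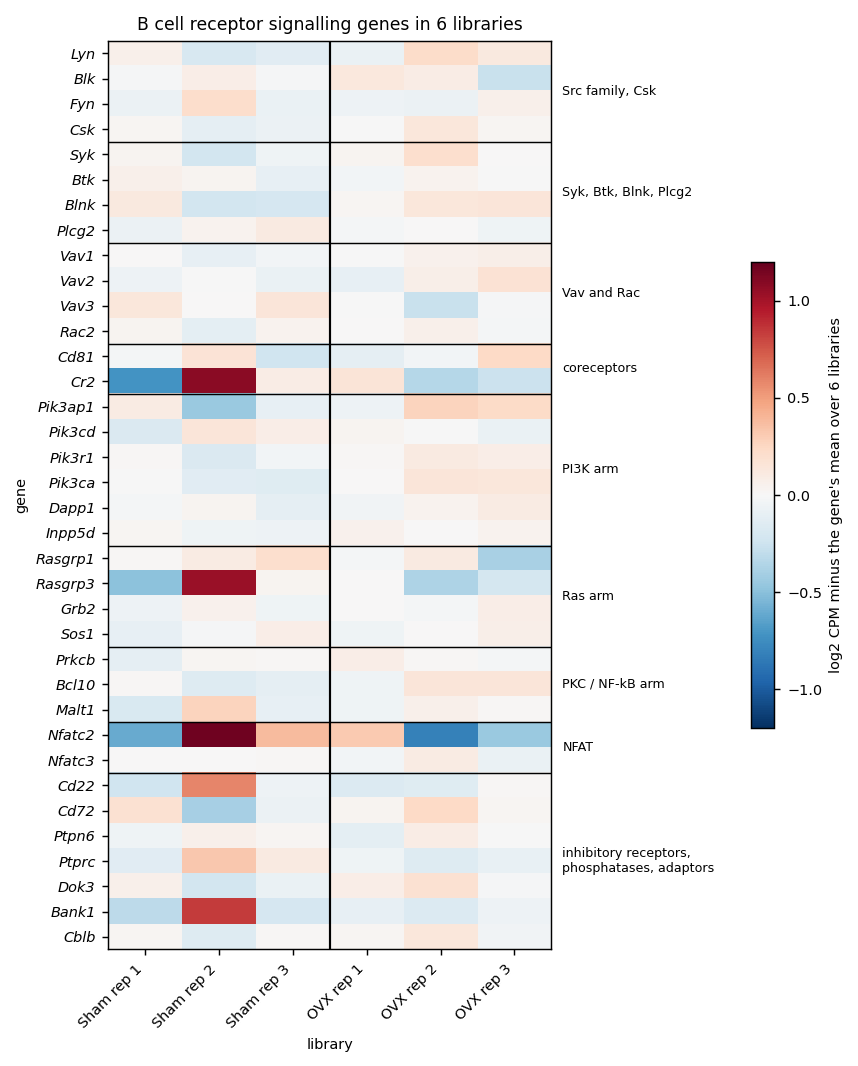
Heat map of the 36 genes (rows, grouped by role) in the 6 libraries (columns, Sham left of the line and OVX right of it), coloured by log2 CPM minus the gene's mean over the libraries. The darkest reds, for Cr2, Rasgrp3, Nfatc2, Bank1 and Cd22, lie in the column of Sham replicate 2, Nfatc2 is also dark blue in OVX replicate 2, and most other rows stay pale.

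None of the 36 genes met the rule for a call, a fold change of 1.6 or more together with an adjusted p-value below 0.05 (quasi-likelihood test of edgeR, adjusted by Benjamini-Hochberg over all genes tested, lowest adjusted p = 0.811), and 0% of all genes met it. At an unadjusted p-value under 0.05 there was 1 of the 36, Pik3ca, which is 2.78%, against 3.75% of all genes tested. By direction, 225 genes at large were higher in OVX (1.47%) and 349 lower (2.28%), and Pik3ca was among those higher. DESeq2 called 0 and had 0 of the 36 at an unadjusted p-value under 0.05, and limma-voom called 0 and had 1. The fitted value was above 0 for 21 of the 36 genes (58.3%) and below 0 for 15, against 48.2% of all genes tested above 0. With scaling on 12 general B cell genes it was above 0 for 11 (30.6%) and below 0 for 25, against 27.8% of all genes above 0. That scaling moved the median of all genes by -0.09. With TMM scaling the median log2 fold change of the 36 was 0.03, with -0.01 over all genes tested. Of the 36, 31 (86.1%) had a fitted value within 0.25 of 0 on the log2 scale, against 71.5% of all genes tested. Genes at large were not matched to the 36 for read count. Their 95% intervals had a median half-width of 0.36, against 0.23 for the 36. For the same number, 31, the whole 95% interval lay inside a 1.6-fold change in both directions, as it did for 59.5% of all genes tested. The 5 whose interval reached beyond 1.6-fold were Cr2, Rasgrp3, Nfatc2, Bank1 and Cd22. The 2 sets of 31 differ, as the fitted value of Cd22 (-0.23) lay within 0.25 of 0 and that of Pik3ap1 (0.28) did not.

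**Figure D2:**
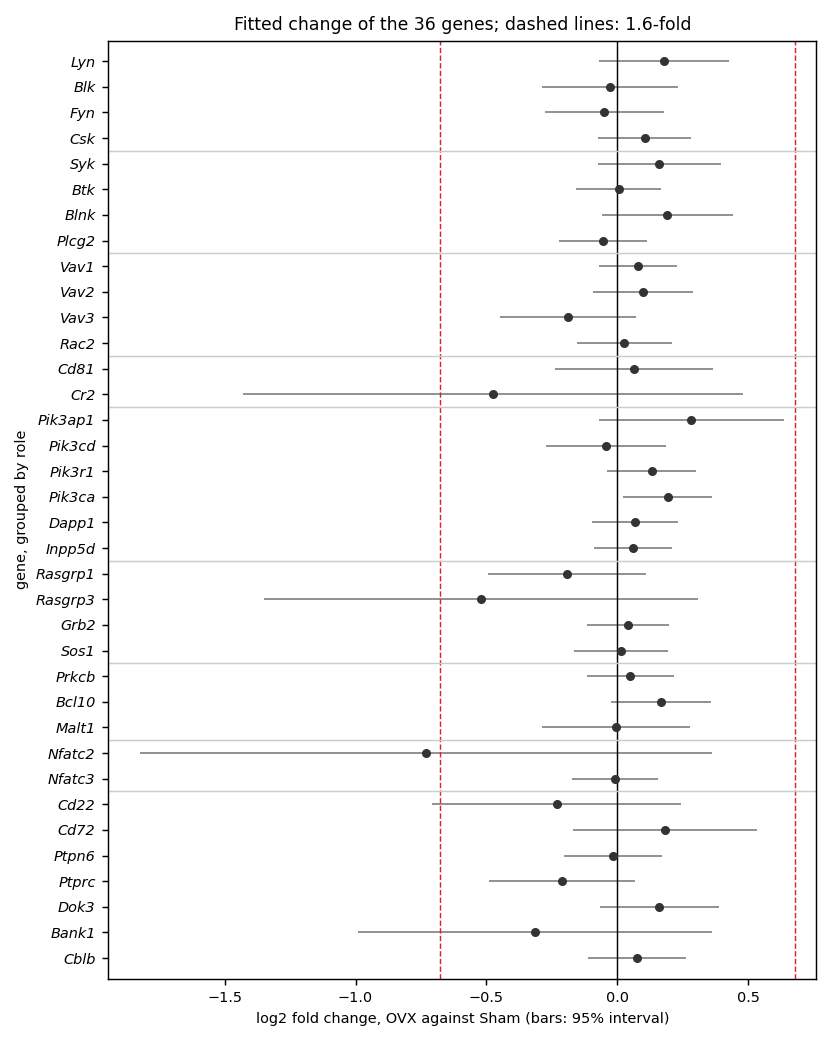
Fitted log2 fold change of OVX against Sham (horizontal axis) for the 36 genes, with 95% intervals as bars and 1.6-fold as dashed lines. The intervals of Cr2, Rasgrp3, Nfatc2, Bank1 and Cd22 cross the dashed line on the left, none crosses the one on the right, and the interval of Pik3ca alone leaves out 0.

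Receptor signalling starts with the Src-family kinases Lyn, Blk and Fyn, and Csk, the kinase that holds them inactive. Lyn (ENSMUSG00000042228, chr4:3678068-3791612), which phosphorylates both activating and inhibitory chains, had 483, 405 and 422 CPM in Sham replicates 1, 2 and 3 and 439, 541 and 503 CPM in OVX replicates 1, 2 and 3. The groups overlapped, as Sham replicate 1 lay above OVX replicate 1. Its log2 fold change was 0.18 (standard error 0.11, 95% interval -0.07 to 0.43, adjusted p = 0.811 in edgeR's quasi-likelihood test), and 0.11 without OVX replicate 2. Blk, which is largely restricted to B lineage cells, had a level between 323 and 422 CPM and a log2 fold change of -0.03, with both extremes in the OVX group. Fyn was between 64.8 and 79.3 CPM, with a log2 fold change of -0.05, and Csk between 625 and 737 CPM, with 0.10. No kinase of this group differed between OVX and Sham beyond its spread.

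Syk (ENSMUSG00000021457, chr13:52582610-52648792) encodes the kinase that docks on the phosphorylated signal chains. It had 1869, 1574 and 1763 CPM in Sham replicates 1, 2 and 3, and 1875, 2103 and 1841 CPM in OVX replicates 1, 2 and 3. Sham replicate 2 was the lowest library and OVX replicate 2 the highest, and the groups overlapped. On the log2 scale the difference was 0.16 (standard error 0.10, 95% interval -0.07 to 0.39), 0.09 without Sham replicate 2 and 0.10 without OVX replicate 2. Btk (ENSMUSG00000031264, chrX:134542334-134583628), the kinase lost in X-linked agammaglobulinemia, was among the steadiest, with 247, 242 and 221 CPM in Sham and 232, 244 and 237 CPM in OVX. Its log2 fold change of 0.01 had a 95% interval from -0.16 to 0.17, and its sign turned with scaling by library size or by the general B cell genes, with the neutrophil level as a covariate and without Sham replicate 3 or OVX replicate 2. Blnk (ENSMUSG00000061132, chr19:40928927-40994221), the adaptor through which SYK reaches phospholipase C, had 439, 347 and 352 CPM in Sham and 410, 443 and 447 CPM in OVX. Sham replicate 1 was level with the OVX libraries, while Sham replicates 2 and 3 were lower than all others. Blnk had a fitted log2 fold change of 0.19 (standard error 0.11, 95% interval -0.06 to 0.44), and 0.31 without Sham replicate 1. Plcg2 (ENSMUSG00000034330, chr8:117498275-117635142), the phospholipase itself, had 395, 427 and 446 CPM in Sham and 407, 415 and 400 CPM in OVX. All OVX libraries of Plcg2 lay inside the Sham range, and the log2 fold change was -0.05 (95% interval -0.22 to 0.11), -0.10 without Sham replicate 1 and -0.02 without Sham replicate 3.

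Vav proteins are exchange factors for Rac, and they link the receptor to the cytoskeleton. Vav1 and Vav2 had levels of 240 to 270 and 175 to 211 CPM and log2 fold changes of 0.08 and 0.10. Vav3 (ENSMUSG00000033721, chr3:109340465-109685694) had 25.7, 23.5 and 25.9 CPM in Sham and 23.4, 19.4 and 23.1 CPM in OVX. Every OVX library of Vav3 lay below every Sham library, by a narrow margin, and it was the only one of the 36 genes (2.78%) with that order, which 4.12% of all genes tested had. Its log2 fold change was -0.19 (standard error 0.11, 95% interval -0.45 to 0.07, unadjusted p = 0.131 in edgeR's quasi-likelihood test), and -0.11 without OVX replicate 2. Rac2, the hematopoietic Rac, was between 699 and 791 CPM, with a log2 fold change of 0.03.

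Among the coreceptors, Cd81 encodes a tetraspanin and Cr2 a complement receptor that binds antigen carrying complement fragments. Cd81 ran from 102 to 141 CPM with a log2 fold change of 0.06 (95% interval -0.24 to 0.36). Cr2 (ENSMUSG00000026616, chr1:195136811-195176880) had 50.7, 177 and 88.5 CPM in Sham replicates 1, 2 and 3 and 92.7, 65.7 and 69.6 CPM in OVX replicates 1, 2 and 3. Both its lowest and its highest library were Sham, and all OVX libraries lay between them. The means were 105 ± 64.8 CPM for Sham and 76.0 ± 14.6 CPM for OVX (n = 3 each, SD), with a log2 fold change of -0.47 (standard error 0.41, 95% interval -1.43 to 0.48). Without Sham replicate 2 the value was 0.12, and no other omitted library turned its sign. Without Sham replicate 1 it was -0.81. The high Cr2 of Sham replicate 2 stood beside its high sum of mature B cell markers, and the part of these cells in the value was not tested.

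The PI3 kinase arm held the only gene of the 36 with an unadjusted p-value under 0.05. Pik3ca (ENSMUSG00000027665, chr3:32397065-32466112), a catalytic subunit found in most cell types, had 144, 132 and 131 CPM in Sham and 146, 161 and 159 CPM in OVX. The OVX libraries all lay above the Sham libraries, with OVX replicate 1 above Sham replicate 1 by a small margin. It was the only one of the 36 (2.78%) with this order, and 4.33% of all genes tested had it. The means were 136 ± 7.41 CPM for Sham and 155 ± 8.27 CPM for OVX (n = 3 each, SD), with a log2 fold change of 0.19 (standard error 0.07, unadjusted p = 0.0308, adjusted p = 0.811 in edgeR's quasi-likelihood test). In edgeR the log2 value of Pik3ca was 0.11 with the neutrophil level as a covariate (unadjusted p = 0.244) and 0.10 with scaling on the general B cell genes (unadjusted p = 0.160). The unadjusted p-value of Pik3ca was also above 0.05 in DESeq2 (0.0535), with the replicate block (0.101) and with 1 library omitted, either Sham replicate 2 (0.0656) or 3 (0.108), or OVX replicate 2 (0.108) or 3 (0.0965). Pik3ap1 (ENSMUSG00000025017, chr19:41272541-41385102), the adaptor BCAP that brings PI3 kinase to the receptor complex, had the highest log2 fold change of the 36. It had 435, 299 and 380 CPM in Sham and 390, 488 and 477 CPM in OVX, with Sham replicate 2 lowest and Sham replicate 1 inside the OVX range. For Pik3ap1 the log2 fold change was 0.28 (standard error 0.15, 95% interval -0.07 to 0.64), 0.15 without Sham replicate 2 and 0.41 without Sham replicate 1. Pik3cd, the catalytic subunit typical of leukocytes, ran from 401 to 502 CPM and had a log2 fold change of -0.04, and the regulatory subunit Pik3r1 ran from 152 to 185 CPM with 0.13. Dapp1, an adaptor that binds the lipid product of the kinase, had a log2 fold change of 0.07. Inpp5d, the lipid phosphatase SHIP1 that opposes the kinase, had the narrowest range of the 36 in relative terms, from 378 to 407 CPM (1.08-fold), and a log2 fold change of 0.06.

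In the Ras arm, the exchange factors Rasgrp1 and Rasgrp3 answer to diacylglycerol, whereas Sos1 is carried by the adaptor Grb2. Rasgrp3 (ENSMUSG00000071042, chr17:75435870-75529054) had 47.4, 137 and 68.1 CPM in Sham and 66.8, 51.6 and 57.8 CPM in OVX. As with Cr2, Sham replicate 1 was the lowest library, Sham replicate 2 the highest, and all OVX libraries lay between them. Rasgrp3 had a fitted log2 fold change of -0.52 (standard error 0.35, 95% interval -1.35 to 0.31), 0.02 without Sham replicate 2 and -0.81 without Sham replicate 1. Rasgrp1 did not share this pattern. It ran from 160 to 188 CPM in 5 libraries and was lowest, at 124 CPM, in OVX replicate 3. Its log2 fold change was -0.19, -0.06 without OVX replicate 3 and -0.30 without OVX replicate 2. Grb2 and Sos1 had log2 fold changes of 0.04 and 0.02, with ranges of 266 to 293 and 47.3 to 53.4 CPM.

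Protein kinase C beta, BCL10 and MALT1 carry the signal to NF-kB. Bcl10 (ENSMUSG00000028191, chr3:145924262-145934366) had 94.1, 83.7 and 86.8 CPM in Sham and 90.0, 103 and 103 CPM in OVX. Only OVX replicate 1 lay within the Sham range, and the log2 fold change was 0.17 (standard error 0.08, 95% interval -0.03 to 0.36). Malt1, the protease that works with BCL10, had 222 CPM in Sham replicate 2 and between 163 and 192 CPM in the other 5 libraries. Its means were 185 ± 31.9 CPM for Sham and 185 ± 7.13 CPM for OVX (n = 3 each, SD). Prkcb ran from 304 to 347 CPM with a log2 fold change of 0.05.

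NFAT proteins are the transcription factors released by calcium and calcineurin. Nfatc2 (ENSMUSG00000027544, chr2:168476410-168601657) had the fewest reads of the 36, from 124 to 506 per library, and the lowest fitted value. It had 5.23, 17.8 and 10.3 CPM in Sham and 9.86, 4.52 and 5.84 CPM in OVX. Sham replicate 2 was the highest library and OVX replicate 2 the lowest, and Sham replicate 1 lay inside the OVX range. Its log2 fold change was -0.73 (standard error 0.47, 95% interval -1.82 to 0.36), -0.21 without Sham replicate 2 and -1.10 without OVX replicate 1. Nfatc3 showed little of this spread, from 257 to 290 CPM, with a log2 fold change of -0.01 (95% interval -0.17 to 0.15).

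The inhibitory receptors Cd22 and Cd72 had opposite orders across the Sham libraries. Cd22 (ENSMUSG00000030577, chr7:30865404-30880342), a sialic acid binding receptor that recruits the phosphatase SHP-1, had 395, 697 and 444 CPM in Sham and 416, 422 and 471 CPM in OVX. Sham replicate 2 was alone at the top, and the other 5 libraries lay close together. For Cd22 the log2 fold change was -0.23 (standard error 0.20), 0.05 without Sham replicate 2 and -0.39 without Sham replicate 1. Cd72 (ENSMUSG00000028459, chr4:43447724-43455102), which also recruits SHP-1, had 687, 459 and 575 CPM in Sham and 621, 717 and 614 CPM in OVX. Here Sham replicate 2 was the lowest library, at 0.74 times the median of the other 5, where Cd22 was at 1.65 times it. For Cd72 it was 0.18 (standard error 0.15), 0.04 without Sham replicate 2 and 0.33 without Sham replicate 1, while omitting OVX replicate 2 gave 0.11. Ptpn6, which encodes SHP-1 itself, ran from 571 to 658 CPM with a log2 fold change of -0.02.

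Ptprc (ENSMUSG00000026395, chr1:138062859-138175756) encodes CD45, the phosphatase that frees Src-family kinases from their inhibitory phosphate. It had 721, 989 and 853 CPM in Sham and 760, 709 and 744 CPM in OVX, with Sham replicate 1 inside the OVX range. The fitted difference was -0.21 on the log2 scale (standard error 0.12, 95% interval -0.49 to 0.07), -0.10 without Sham replicate 2 and -0.32 without Sham replicate 1. Bank1 (ENSMUSG00000037922, chr3:136053363-136326141), a B cell scaffold protein with ankyrin repeats, had 146, 326 and 158 CPM in Sham and 171, 163 and 174 CPM in OVX. The 5 libraries other than Sham replicate 2 stayed between 146 and 174 CPM, and Sham replicate 2 was at 2.01 times their median. Bank1 had a fitted log2 fold change of -0.31 (standard error 0.29), 0.15 without Sham replicate 2, and -0.52 and -0.49 without Sham replicates 1 and 3. Dok3, an adaptor that dampens calcium signals, had its lowest level, 567 CPM, in Sham replicate 2 and its highest, 749 CPM, in OVX replicate 2, with a log2 fold change of 0.16. Cblb, a ubiquitin ligase that limits receptor signalling, ran from 95.6 to 117 CPM with a log2 fold change of 0.08.

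**Figure D3:**
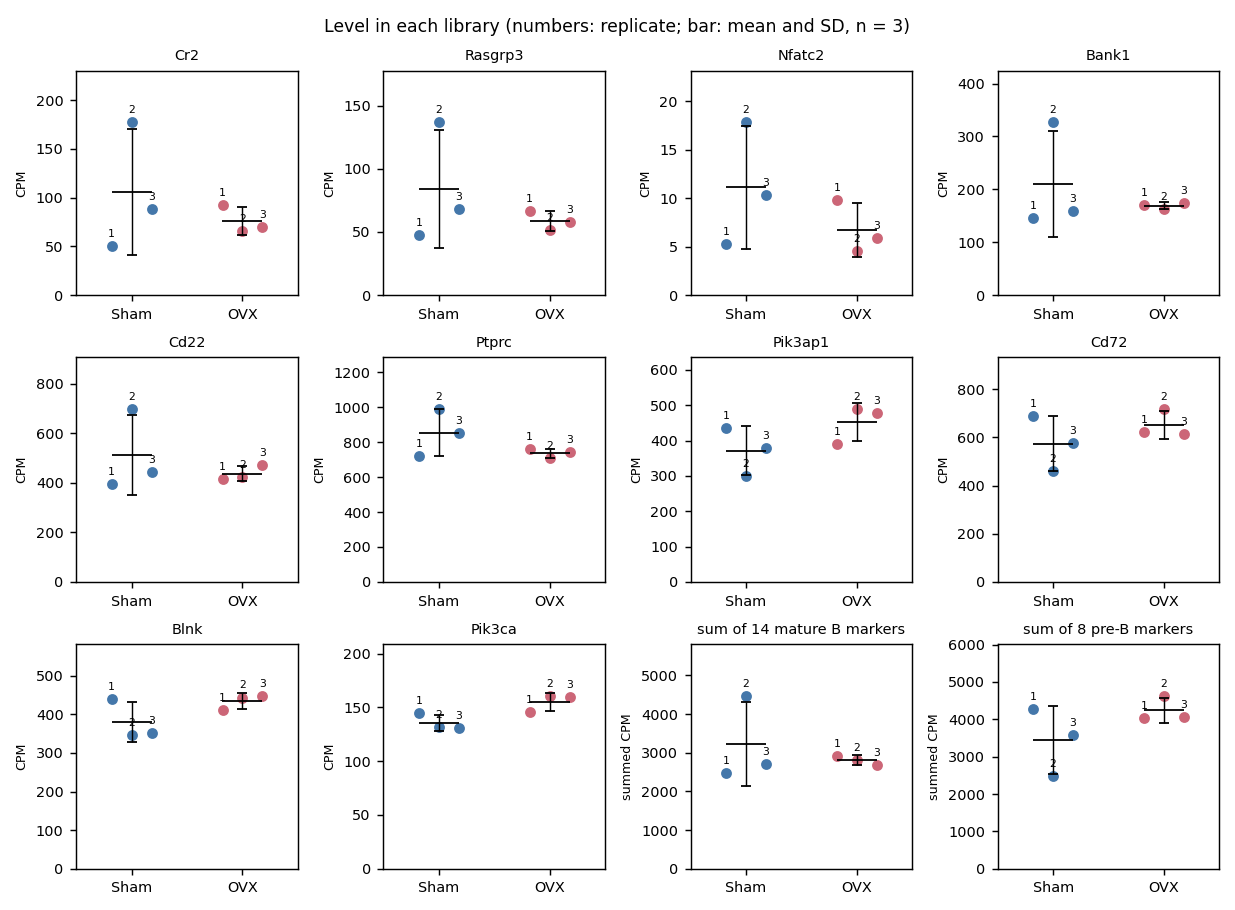
Level in CPM (vertical axes, from 0) of 10 genes in the 3 Sham and 3 OVX libraries, with replicate numbers at the points and the mean and SD as bars, beside the summed CPM of 14 mature B cell markers and 8 pre-B markers. Sham replicate 2 is the highest point for Cr2, Rasgrp3, Nfatc2, Bank1, Cd22, Ptprc and the mature markers, and the lowest for Pik3ap1, Cd72, Blnk and the pre-B markers.

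Sham replicate 2 was more than 1.25 times the median of the other 5 libraries for 7 of the 36 genes (19.4%), with ratios of 3.05 for Nfatc2, 2.55 for Cr2, 2.37 for Rasgrp3, 2.01 for Bank1, 1.65 for Cd22, 1.33 for Ptprc and 1.25 for Malt1. It was below the median by as large a factor for 3 genes (8.33%), Pik3ap1, Cd72 and Blnk. Over all genes tested these shares were 24.5% and 16.0%, and both shares among the 36 genes were below them. Here too, genes at large were not matched to the 36 for read count. In the other 5 libraries between 0 and 2 of the 36 genes lay above this limit and between 0 and 4 below it. Sham replicate 1 was lowest and Sham replicate 2 highest for 6 genes (16.7%), Cr2, Pik3cd, Rasgrp3, Malt1, Cd22 and Bank1, an order that 6.78% of all genes tested had, and the difference in these shares was not tested. The SD of log2 CPM was larger in Sham than in OVX for 26 of the 36 genes (72.2%), against 65.1% of genes with a read in every library.

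**Figure D4:**
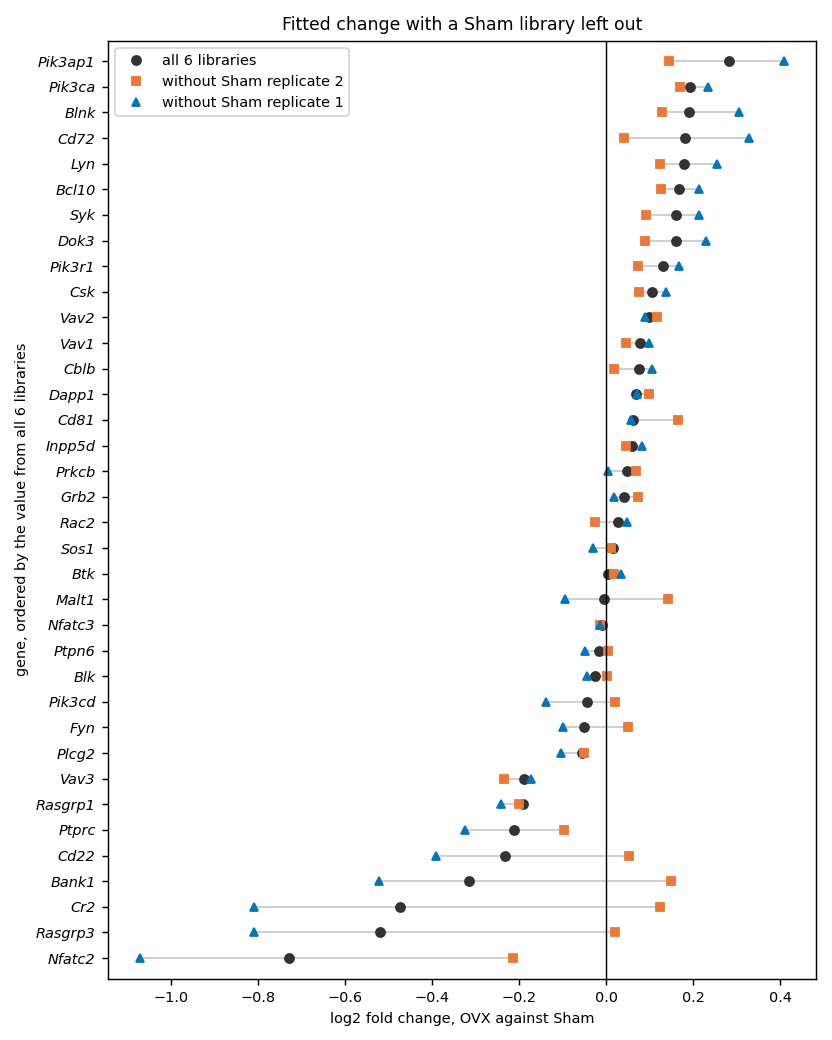
Fitted log2 fold change of OVX against Sham (horizontal axis) for the 36 genes from all 6 libraries (circles), without Sham replicate 2 (squares) and without Sham replicate 1 (triangles). Cr2, Rasgrp3, Bank1 and Cd22 cross 0 when Sham replicate 2 is left out, and Nfatc2 moves from -0.73 to -0.21.

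With Sham replicate 2 left out, 29 of the 36 genes (80.6%) had a fitted value above 0, against 49.4% of all genes, and the values ran from -0.24 to 0.17 with a median of 0.05. None of the 36 then had an unadjusted p-value under 0.05, against 2.31% of all genes tested, and none was called. With Sham replicate 1 left out, the range widened to between -1.07 and 0.41. In that fit 11 of the 36 genes (30.6%) had an unadjusted p-value under 0.05, against 16.8% of all genes, and edgeR's quasi-likelihood test gave 0.273 as the smallest adjusted p-value. The 7 with higher values in OVX were Lyn, Blnk, Pik3ap1, Pik3ca, Bcl10, Cd72 and Dok3, and the 4 with lower values were Cr2, Rasgrp3, Nfatc2 and Ptprc. No gene was called in either fit, and the differences between these shares and those of all genes were not tested.

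A second list of 76 genes of the same pathway, from the signal chains to NF-kB, calcium entry, the MAP kinases and further inhibitory receptors, was read from the same fit. All 76 were tested and none was called. At an unadjusted p-value under 0.05 there was 1 of the 76 (1.32%), Nfkbia, against 3.75% of all genes. The fitted value was above 0 for 37 and below 0 for 39, with a median of -0.01. The OVX libraries all lay above the Sham libraries for 5 genes (6.58%) and below them for 1 (1.32%), against 4.33% and 4.12% of all genes.

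The 3 highest of the 76 were Gab1, Nck2 and Nfkbia. Gab1, a docking adaptor for PI3 kinase, ran from 4.90 to 11.8 CPM, with a fitted log2 value of 0.53 (standard error 0.27). Nck2, an adaptor to the cytoskeleton, had 0.24 (standard error 0.10), and its OVX libraries all lay above its Sham libraries. Nfkbia, which encodes the inhibitor of NF-kB, had 243, 204 and 220 CPM in Sham and 237, 279 and 264 CPM in OVX, with a log2 fold change of 0.23 (standard error 0.09, unadjusted p = 0.0438, adjusted p = 0.811 in edgeR's quasi-likelihood test). The 3 lowest were Lilrb4a, Fgr and Fcrl5. Lilrb4a, an inhibitory receptor that is also made by myeloid cells and has a close relative in sequence, had 36.6 CPM in Sham replicate 3 and 2.47 CPM in OVX replicate 2, with a log2 fold change of -1.41 (standard error 0.86). Fgr, a Src-family kinase of myeloid cells, also peaked in Sham replicate 3, at 59.0 CPM, where the neutrophil markers were highest, and had -0.85 (standard error 0.36). The part of myeloid cells in these 2 values was not tested. Fcrl5, an Fc receptor-like protein of mature B cells, peaked in Sham replicate 2 at 14.7 CPM and had -0.84 (standard error 0.38).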

How the data were processed

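RNA-seq of bone marrow B cells was used from 3 OVX and 3 Sham libraries, grouped by their labels. ChIP-seq of HIF-1α and the matching input were not used here. As deposited by the authors, values are read counts per Ensembl gene without normalization. The submitters' processing notes name CASAVA, Bowtie 0.12.2 and the build mm10 without a role, and the counter, annotation and strand setting are not given in the sources used here, so how reads of overlapping or antisense genes were split is unknown. A symbol was found for 54409 of 54532 identifiers, and gene positions and promoter sequences came from RefSeq (GRCm38.p6).

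The tools were edgeR 4.0.16, DESeq2 1.42.0 and limma 3.58.1, run in R 4.3.3. After filterByExpr and TMM scaling, OVX was compared with Sham by edgeR's quasi-likelihood test with no block, with Benjamini-Hochberg adjustment over 15305 genes. Standard errors are the log2 fold change divided by the square root of F. The scripts were tested on simulated data. Every pair of libraries differed by more than sampling noise. The labels do not say whether each library came from a separate mouse. The p-values set the difference between OVX and Sham against the spread between these libraries, which may be technical.

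The 36 genes, the pathway list and the marker lists were chosen with earlier results of these data known. Library values were given for genes at an unadjusted p-value under 0.05, genes whose groups did not overlap, the 6 highest and 6 lowest fitted values, and Lyn, Syk, Btk, Blnk, Plcg2, Cr2, Cd22 and Ptprc. Of the pathway list the 3 highest and 3 lowest were named. The alternatives were other tools, scaling, filters, no fold threshold, a neutrophil covariate, a replicate block and each library left out. One item is not reported here.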

Additional observations from a re-analysis of the deposited data

How the results depend on the processing

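No gene of the 36 and no gene at large was called under any of the 14 alternative fits or without the fold threshold, with edgeR, DESeq2 or limma-voom, and the lowest adjusted p-value was 0.273, without Sham replicate 1. At an unadjusted p-value under 0.05 edgeR had 574 genes (3.75% of 15305). There were 1269 without the filter on low counts (4.63% of 27416), 165 with the neutrophil covariate (1.08%) and 206 with the replicate block (1.35%). With 1 library omitted the number ran from 233 without OVX replicate 2 (1.48%) to 2698 without Sham replicate 1 (16.8%). It was 360 and 286 without Sham replicates 2 and 3, 988 without OVX replicate 1 and 411 without OVX replicate 3. DESeq2 had 204 higher and 551 lower, 2.75% of 27412 genes. Among the 36 genes the number was 1. It was 0 with DESeq2, the general B cell genes, the neutrophil covariate and the replicate block, 2 without the filter, and from 0 to 11 with one library omitted, with 11 reached without Sham replicate 1 and 2 without OVX replicate 1. Scaling on the general B cell genes gave 11 of the 36 genes above 0 and a median of -0.057, against 21 and 0.03. Of all genes 27.8% were then above 0, against 48.2%. The split at an unadjusted p-value under 0.05 moved from 225 higher and 349 lower to 61 and 562. The general B cell genes had mean sums of 11494 CPM in OVX and 10776 CPM in Sham, and the groups overlapped. Scaling on them therefore lowers OVX values relative to Sham. What lies behind the difference in sums was not tested.

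The replicate block rests on numbers that do not link Sham with OVX libraries. Deviations of same-numbered libraries correlated at -0.41, -0.19 and -0.28 over the genes, and genes are not independent. With the block, 22 of the 36 genes (61.1%) were above 0, against 48.7% of all genes tested.

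Of 224 values of 16 genes over the alternatives, 215 kept their direction, 9 reversed and 0 passed the threshold. Btk reversed to -0.0155 by library size, -0.0855 with the general B cell genes and -0.0626 with the neutrophil covariate, and ran from -0.0494 without Sham replicate 3 to 0.0339 without Sham replicate 1, with -0.0141 without OVX replicate 2. Without Sham replicate 2, Cr2 reversed to 0.12, Rasgrp3 to 0.0201, Cd22 to 0.0530 and Bank1 to 0.15. Without Sham replicate 1 these were -0.81, -0.81, -0.39 and -0.52. Nfatc2 had the fewest reads, 124 to 506 per library, and a 95% interval of -1.82 to 0.36. Whether depth or the spread between libraries sets that width was not tested.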

Other observations

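Values of the other marker lists are given as summed CPM, with a two-sided exact permutation p between 0.2 and 0.9 over the 15 lists, where 3 libraries against 3 allow no p below 0.1. The 10 pro-B markers summed to between 1463 and 2673 CPM in Sham and between 2098 and 2864 CPM in OVX. The 10 cell cycle genes were all lowest in Sham replicate 2, at 2105 CPM against 2721 to 3277 CPM in the other 5 libraries. The 12 general B cell genes ran from 10495 to 12294 CPM. Sums of the 7 plasma cell genes ran from 946 to 1411 CPM, of which Irf4 had 392 to 587 CPM and Jchain 71.3 to 641 CPM. For the 7 genes of plasmacytoid dendritic cells the sums were 209 to 257 CPM. Tcf4 had 157 to 173 CPM of these, and Siglech ran from 0.918 to 14.8 CPM. The sum of the 16 genes of monocytes and macrophages was highest in Sham replicate 2, at 2633 CPM, and OVX replicate 3, at 2124 CPM. It was between 761 and 1262 CPM in the other libraries. Of the 16 genes, 8 were highest in Sham replicate 2 and 5 in Sham replicate 3. Mrc1 went with the sum, at 289 CPM in Sham replicate 2 and 204 CPM in OVX replicate 3. Ccr2 did not, at 56.1 CPM in Sham replicate 3 and 2.69 CPM in OVX replicate 3, its lowest library. The 8 erythroid genes ran from 144 to 474 CPM and the 6 megakaryocyte genes from 125 to 306 CPM. Sums of the 7 stroma genes ran from 15.8 to 58.2 CPM, and those of the 6 genes of basophils and mast cells from 8.54 to 63.8 CPM. The 6 endothelial genes ran from 240 to 264 CPM. Most of that sum was Pecam1, also in the pathway list, at 223 to 230 CPM, and Stab2 ran from 7.52 to 27.5 CPM.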
